A study of Homo sapiens with 24 samples.

Results

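The effect of siBRM was examined in SW-13 cells that had been exposed to IFNγ, on 6 of the 24 expression arrays of the series. Cells transfected with siCtrl and siBRM were compared with cells transfected with siCtrl alone, with 3 arrays in each group. SW-13 is an established human adrenocortical carcinoma line that lacks BRG1. The controls received 50 nM siCtrl and the siBRM cells received 50 nM siCtrl and 75 nM siBRM, in repeated rounds of transfection, and both groups were then exposed to IFNγ for 6 hours. The total siRNA dose was therefore 50 nM in controls and 125 nM in siBRM cells, and 0 groups received the higher total without siBRM, so an effect of siBRM and one of the total dose cannot be told apart. The other 18 arrays held the same siRNA groups without IFNγ, and cells given 50 nM siSUZ12 in place of siCtrl, with or without 75 nM siBRM and with or without IFNγ, again with 3 arrays in each group.

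BRM is the product of SMARCA2 and is one of the alternative ATPases of the SWI/SNF complex, which moves nucleosomes and opens chromatin at promoters and enhancers. BRG1, which SW-13 cells lack, is the closely related other ATPase of the complex. SUZ12 is a core subunit of PRC2, the complex that methylates histone H3 at lysine 27 and keeps genes silent. IFNγ binds its receptor at the cell surface and switches on the interferon-stimulated genes (ISGs), which act in antiviral defence and antigen presentation. The study added siBRM to ask whether BRM accounted for the ISG induction seen after depletion of PRC2, and the arrays of siCtrl cells with siBRM give the effect of siBRM where PRC2 was left in place.

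Each array measured 47231 probes, and the brightness of a probe, called signal here, measures the mRNA it binds. Gene names are not paired with the probes in the files, so results are given by probe, the level of BRM mRNA was not read from the arrays, and several probes may measure 1 gene. For the same reason the cell line was not checked against its marker genes. The mean signal before scaling ran from 531.8 to 604.9 over the 6 arrays, and from 15291 to 16269 probes had a detection p-value below 0.01. Log2 signals of arrays within a group correlated at 0.99409 to 0.9948 over 6 pairs, and those of siBRM with control arrays at 0.99209 to 0.99318 over 9 pairs, so every pair within a group was more alike than any pair between the groups.

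siBRM changed few probes strongly in IFNγ-exposed cells, and more of them fell than rose. A probe was called when its scaled signal changed ≥ 2-fold and its p-value from limma, adjusted over all probes by the method of Benjamini and Hochberg and called FDR here, was below 0.05. By this rule 9 probes rose, or 0.0191% of all probes, and 26 fell, or 0.055%. The median log2 change was 1.03 for the raised probes, with a range of 1.01 to 1.16, and -1.19 for the lowered probes, with a range of -2.55 to -1. The fall exceeded 3-fold at 5 probes and the rise at 0. At the threshold, the smallest called rise was a log2 of 1.01 and the largest rise that was not called was 0.983. The smallest called fall was -1 and the largest fall not called was -0.984.

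A ≥ 2-fold fall can be called only at probes that stood well above background in control cells, so the signals of the lowered probes are given as a description. In control cells they ran from 165.5 to 12640 with a median of 1253, beside 454.2 over the probes that all 6 arrays detected. In siBRM cells their median was 499.5. Of the 26, 17 had a control signal above 1000, and all 26 were detected in the 3 control arrays. The raised probes had control signals from 274.1 to 1562 with a median of 391.9, and 852.4 was their median in siBRM cells. All 9 were detected in every one of the 6 arrays, so none was switched on from background.

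**Figure D1:**
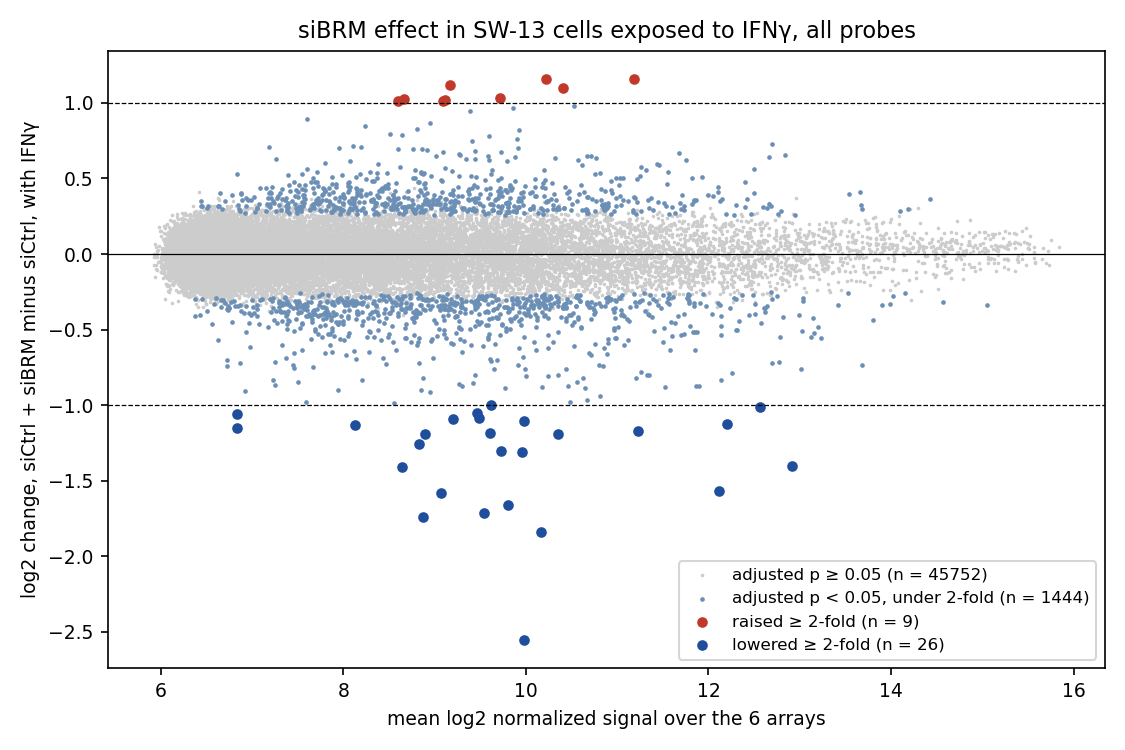
Log2 change by siBRM in IFNγ-exposed siCtrl cells (vertical axis) against the mean log2 scaled signal of the 6 arrays (horizontal axis), 1 point per probe. Dashed lines mark 2-fold. The 26 lowered probes (dark blue) reach further from 0 than the 9 raised ones (red), down to a log2 of -2.55 against a highest rise of 1.16, and lie over most of the signal range.

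Detection was lost at 2 of the lowered probes, which all 3 control arrays and 0 of 3 siBRM arrays detected. The signal of the first was 155.9, 186.1 and 169.9 in controls and 76.83, 81.56 and 71.31 in siBRM cells. That of the second was 190.4, 154.8 and 151.2 in controls and 79.92, 81.1 and 76.34 in siBRM cells. Their siBRM signals were at background, which was not subtracted here, so their log2 changes of -1.15 and -1.06 understate the fall. The remaining 24 lowered probes were still detected in all 3 siBRM arrays.

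The probes named below were chosen among called probes with arrays that did not overlap, so separation of their groups follows from the choice. The largest fall was that of probe ILMN_1787815. Its scaled signal was 2354, 2418 and 2568 in control cells and 425.4, 436.3 and 388.8 in siBRM cells. The groups lay far apart, at 2447 ± 110 and 416.8 ± 24.9 (SD, n = 3 each), a 5.87-fold fall. Its log2 change was -2.55 (standard error 0.0859, adjusted p = 8.29e-21, limma with Benjamini-Hochberg adjustment).

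Probe ILMN_1676984 had the next largest fall. Its signal was 2190, 2132 and 2219 in control cells and 616.4, 602.4 and 607 in siBRM cells. The siBRM arrays differed from each other by far less than from any control array. The means were 2180 ± 44.1 and 608.6 ± 7.12 (SD, n = 3 each), a 3.58-fold fall with a log2 change of -1.84 (standard error 0.0791, adjusted p = 6.36e-18, limma with Benjamini-Hochberg adjustment).

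The largest rise was that of probe ILMN_1773650, with a signal of 1663, 1518 and 1507 in control cells and 3561, 3501 and 3405 in siBRM cells. Its means were 1562 ± 87 and 3489 ± 78.4 (SD, n = 3 each). The 2.23-fold rise had a log2 change of 1.16 (standard error 0.0756, adjusted p = 5.07e-13, limma with Benjamini-Hochberg adjustment). Probe ILMN_1651496 rose by as much, from 895, 733.5 and 781.4 in control cells to 1868, 1787 and 1705 in siBRM cells. The means of ILMN_1651496 were 803.3 ± 82.9 and 1786 ± 81.4 (SD, n = 3 each). Its log2 change was 1.16 (standard error 0.0857, adjusted p = 1.09e-11, limma with Benjamini-Hochberg adjustment).

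**Figure D2:**
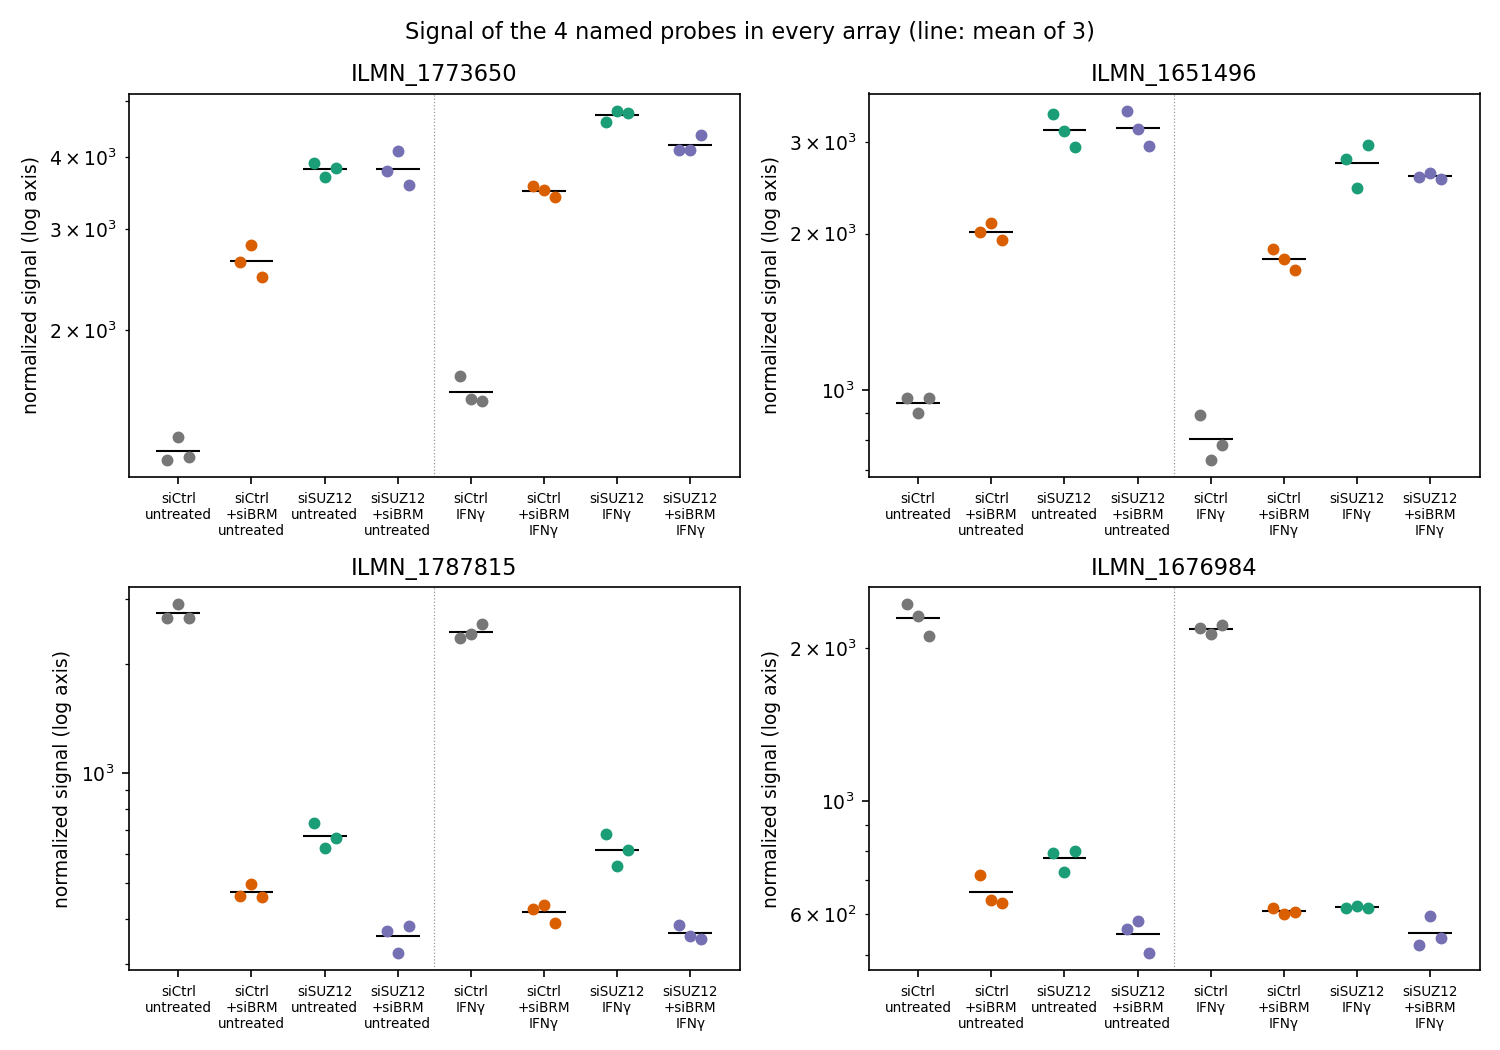
Scaled signal (log axis) of the 2 probes with the largest rise (top) and the 2 with the largest fall (bottom) in each of the 24 arrays, by group, with a line at the mean of 3 arrays. With IFNγ, siBRM arrays of siCtrl cells (orange) lie apart from siCtrl arrays (grey), for instance at 388.8 to 436.3 against 2354 to 2568 for ILMN_1787815.

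Small changes were far more frequent than 2-fold ones. Without the 2-fold threshold, 668 probes rose (1.41% of all) and 811 fell (1.72%) at an FDR below 0.05, with median log2 changes of 0.359 and -0.375. At 1.5-fold, 60 probes rose (0.127%) and 121 fell (0.256%). The count on the FDR alone depends on the number of arrays. It was 1479 for both directions together with all arrays, and from 478 to 654 when a replicate number was left out of every group (654 without the first, 478 without the second and 630 without the third).

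The siBRM effect was next read on the untreated arrays, which entered the comparison above only through the spread shared over the 24 arrays. A fit of the 6 compared arrays alone called the same 9 raised and 26 lowered probes. Untreated and IFNγ-exposed cells may come from the same transfected cultures, which the labels do not state. All 9 raised probes rose and all 26 lowered probes fell there too, each at an FDR below 0.05 (limma), where 1.51% of all probes rose and 1.87% fell. Of the 9, 6 rose ≥ 2-fold (0.0169% of all probes did), and of the 26, 25 fell ≥ 2-fold (0.0635% of all did). The median log2 change was 1.01 at the raised and -1.21 at the lowered probes without IFNγ. ILMN_1676984 fell from 2435, 2307 and 2115 to 717.9, 641.7 and 632.6, and ILMN_1651496 rose from 963.3, 902 and 962.7 to 2011, 2097 and 1942. Both changed without IFNγ about as they did with it, at log2 values of -1.78 and 1.1. Of the 1479 probes that passed the FDR alone with IFNγ, 1448, or 97.9%, changed in the same direction without it, 907 of them at an FDR below 0.05 and 0 at such a value in the opposite direction.

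The difference between the siBRM effects with and without IFNγ was tested directly. By limma with Benjamini-Hochberg adjustment 0 of the 47231 probes, or 0%, had an FDR below 0.05, the smallest being 0.0591, while 1895 had an unadjusted p-value below 0.05 (4.01%). No probe had a log2 difference of 1 or more in size. For the 35 called probes the differences ran from -0.205 to 0.663, and 33 of the 35 had a 95% confidence interval within 0.5 of 0 on the log2 scale. The count of 0 became 1 under quantile normalization, median scaling or a replicate block, 4 among probes detected in at least 3 arrays and 10 with trend and robust settings of eBayes. The same called probe passed under each of these 5 settings. Beside it were 3 of the 4 and 9 of the 10 that passed, all of them among the probes that IFNγ induced ≥ 2-fold in siSUZ12 cells.

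That called probe, which had the largest difference of the 35, fell further without IFNγ. With IFNγ its signal was 1408, 1273 and 1358 in control cells and 415.1, 432.3 and 385.1 in siBRM cells. Without IFNγ it was 1470, 1538 and 1514 in control cells and 306.9, 285.2 and 279.8 in siBRM cells. The untreated siBRM arrays were the lowest and the siBRM arrays with IFNγ lay above all of them. Its log2 change was -1.71 with and -2.38 without IFNγ, a difference of 0.663 (95% confidence interval 0.434 to 0.891, adjusted p = 0.0591, limma with Benjamini-Hochberg adjustment). Its adjusted p-value was 0.0014 to 0.0425 under the 5 settings above, and 0.0453 without replicate 3 of the siBRM arrays with IFNγ (limma). Leaving out any other single array of the 6 compared gave 0.0871 to 0.464. The adjusted p-value was 0.146 with neqc and 0.221 in a fit of the 12 siCtrl arrays. It was 0.318, 1 and 0.882 without replicate numbers 1, 2 and 3 (limma).

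The response of the called probes to IFNγ itself was read in siSUZ12 cells, outside the 6 arrays compared. Of the 35, 5 changed at an FDR below 0.05 (limma), where 1.2% of all probes rose and 0.711% fell. The log2 changes ran from -0.213 to 0.334 at the raised and from -0.375 to 0.456 at the lowered probes.

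siBRM and siSUZ12 moved most of the called probes the same way. On untreated arrays, which share none with the 6 arrays compared for the calls, siSUZ12 raised all 9 raised probes against siCtrl at an FDR below 0.05 (limma; 8.16% of all probes rose), and 8 of the 9 by ≥ 2-fold (0.451% of all). It lowered 22 of the 26 lowered probes (5.83% of all fell), and 17 of them by ≥ 2-fold (0.199% of all). Of the other 4 lowered probes, 3 had no change at that FDR and 1 was raised. The median log2 change by siSUZ12 was 1.61 at the raised probes, above the 1.03 by siBRM with IFNγ, and -1.31 at the lowered probes, beside -1.19. The 8 raised probes were 3.76% of the 213 that siSUZ12 raised ≥ 2-fold, and the 17 lowered ones were 18.1% of the 94 that it lowered. Over the 1479 probes that passed the FDR alone, 1241, or 83.9%, changed in the direction of siBRM after siSUZ12, 920 of them at an FDR below 0.05, and 84 changed in the other direction at such a value.

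The median over each set on single arrays shows the same order. Relative to the mean of siCtrl cells with IFNγ, the raised set stood at a log2 of 1.01 to 1.09 in the siBRM arrays with IFNγ that chose it. It stood at 0.929 to 0.957 in untreated siBRM arrays, at 1.47 to 1.70 in the 6 siSUZ12 arrays and at 1.63 to 1.71 in the 6 arrays with both siRNAs. The lowered set stood at -1.27 to -1.14 in the 6 siBRM arrays of siCtrl cells, at -1.32 to -1.19 in siSUZ12 arrays and at -1.61 to -1.54 with both. The siSUZ12 arrays thus lay above the siBRM arrays for the raised set and overlapped them for the lowered set. Arrays with both siRNAs lay lowest for the lowered set.

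**Figure D3:**
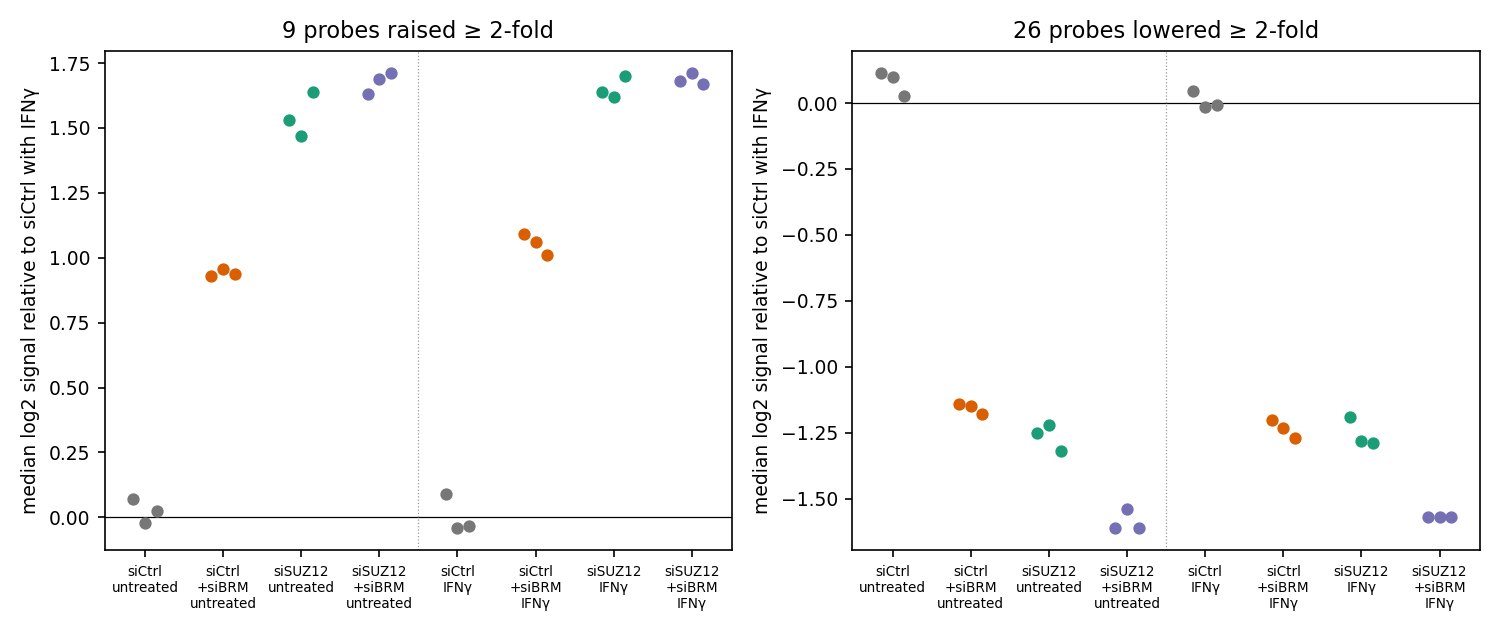
Median log2 scaled signal of the 9 raised (left) and 26 lowered probes (right) in each of the 24 arrays, relative to the mean of the 3 siCtrl arrays with IFNγ. Each point is 1 array. The probes were chosen on the siCtrl and siCtrl + siBRM arrays with IFNγ, and the other 18 arrays entered the choice only through the spread shared over the fit. Arrays with both siRNAs (purple) reach -1.61 to -1.54 for the lowered set.

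In cells that had received siSUZ12, siBRM had a smaller effect on these probes. With IFNγ, siSUZ12 + siBRM cells against siSUZ12 cells gave a median log2 change of 0.0632 at the 9 raised probes, where 2 rose at an FDR below 0.05 (1.68% of all probes rose). At the 26 lowered probes it was -0.431, where 17 fell (1.71% of all fell). Without IFNγ, 1 of the 9 rose and 22 of the 26 fell at that FDR (1.29% and 1.65% of all), and the fall was ≥ 2-fold at 4 (0.0275% of all).

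The difference between the siBRM effects in siCtrl and in siSUZ12 cells was tested on the 12 untreated arrays, since the calls came from arrays with IFNγ. It passed an FDR of 0.05 at 30 of the 35 probes, against 1.25% of all probes (limma with Benjamini-Hochberg adjustment). The 30 were 9 raised and 21 lowered probes, and the effect was smaller in siSUZ12 cells at each. Choosing the probes by their effect in siCtrl cells favours this result, and probes chosen by their effect in siSUZ12 cells were not tested. The 21 include the lowered probes that lost detection with siBRM. Their signals in untreated siSUZ12 cells were already low, at 108.9 to 126.5 and 87.29 to 98.59, which left little room for a further fall. Over all probes without IFNγ, siBRM raised 1.29% and lowered 1.65% in siSUZ12 cells at that FDR, beside 1.51% and 1.87% in siCtrl cells. The siBRM effect in siSUZ12 cells was a median of 0.318 times that in siCtrl cells over the 35 probes, 0.125 times at raised and 0.371 times at lowered ones. ILMN_1773650 had a mean signal of 3814 ± 108 after siSUZ12 and 3820 ± 257 after both siRNAs (SD, n = 3 each), beside 1233 ± 62.4 and 2640 ± 169 in siCtrl cells without and with siBRM. Adding siBRM to siSUZ12 moved its mean by less than the SD of either group on these untreated arrays. With IFNγ it was 4731 ± 117 after siSUZ12 and 4208 ± 148 after both (SD, n = 3 each), and its log2 change of -0.169 had an adjusted p of 0.309 (limma). ILMN_1787815 had 674.7 ± 53.2 after siSUZ12 and 357.7 ± 31.6 after both, beside 2747 ± 139 and 472.9 ± 22.7 (SD, n = 3 each), so it fell again when siBRM was added, with a log2 change of -0.917 against -2.54 in siCtrl cells.

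**Figure D4:**
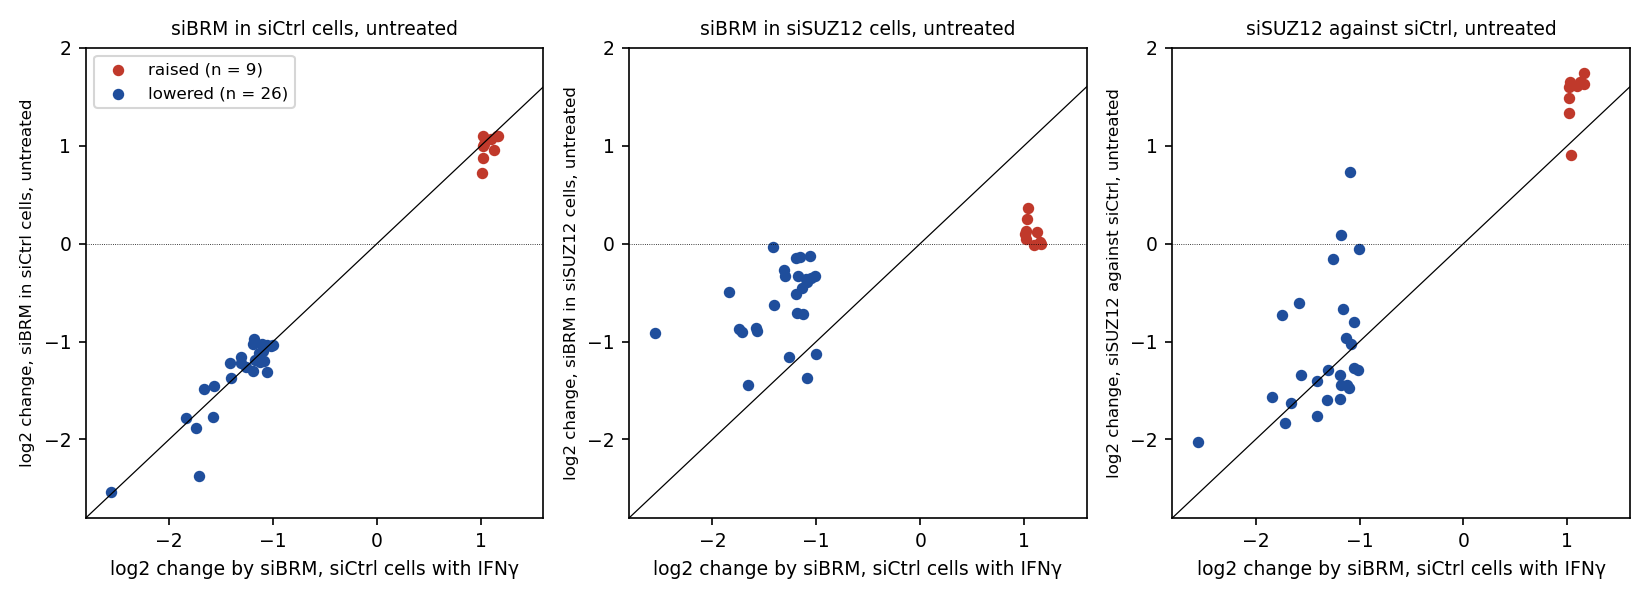
Log2 change of the 35 called probes by siBRM in siCtrl cells with IFNγ (horizontal axes, which chose them) against 3 changes on untreated arrays (vertical axes), for 9 raised (red) and 26 lowered (blue) probes. The solid line marks equal changes. Points lie near it for siBRM in untreated siCtrl cells, and 33 of the 35 had a smaller change for siBRM in siSUZ12 cells than in siCtrl cells without IFNγ. After siSUZ12, 1 lowered probe is raised, at a log2 of 0.731.

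The lowered probes were grouped by their response to siSUZ12 without IFNγ. The 17 that siSUZ12 lowered ≥ 2-fold had a median log2 change by siBRM with IFNγ of -1.31 in siCtrl and -0.356 in siSUZ12 cells. In siSUZ12 cells they ran from -1.26 to -0.163 and 10 fell at an FDR below 0.05 (limma), where 1.71% of all probes fell. For the 5 that siSUZ12 lowered by less than 2-fold these medians were -1.15 and -0.456, with a range of -0.82 to -0.0641 in siSUZ12 cells and 3 falls at that FDR. The 3 with no call after siSUZ12 had -1.18 and -0.989, with a range of -1.28 to -0.628 and 3 falls. The ranges overlapped, and differences between these small groups were not tested.

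The 1 lowered probe that siSUZ12 raised had signals of 851, 833.3 and 896.6 in control cells and 410.7, 385.8 and 414.6 in siBRM cells, both with IFNγ. Its log2 change by siBRM was -1.09 in siCtrl cells and -1.2 in siSUZ12 cells with IFNγ, and siSUZ12 raised it by a log2 of 0.731 in untreated cells (adjusted p = 1.31e-09, limma with Benjamini-Hochberg adjustment). At the 4 lowered probes that siBRM still lowered ≥ 2-fold in untreated siSUZ12 cells, of which this is 1, the log2 change there ran from -1.45 to -1.13, beside -1.66 to -1 in siCtrl cells with IFNγ.

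IFNγ-induced probes were taken from siSUZ12 cells, where IFNγ raised 130 probes ≥ 2-fold, so that the list came from arrays outside the siBRM comparison. The probes were not required to respond to IFNγ in siCtrl cells, and their median induction there, given below, was less than 2-fold. With IFNγ, most of this list had a slightly higher signal in siBRM cells. Its median log2 change was 0.191, beside -0.0055 over all probes, and 111 of the 130 had a higher mean in siBRM cells. At an FDR below 0.05, 43 rose (33.1%, where 1.41% of all probes did) and 4 fell (3.08%, where 1.72% of all did), by limma with Benjamini-Hochberg adjustment. The 3 siBRM arrays lay above the 3 control arrays at 70 of the 130 probes, as they did at 7.67% of all probes, and below them at 8, as they did at 8.89% of all. The 43 rises had log2 values of 0.308 to 0.87, 5 of the 130 probes rose ≥ 1.5-fold and 0 rose ≥ 2-fold. Without replicate 1, 2 or 3 in every group, the list was taken again and held 129, 128 or 127 probes. From 21 to 29 of them rose (23 without the second and 21 without the third), while the median stayed between 0.2 and 0.205.

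Array by array, the list stood apart with IFNγ. Relative to the mean of the 3 control arrays with IFNγ, its median log2 signal was 0.0362, -0.0164 and -0.0162 in those arrays and 0.222, 0.19 and 0.188 in the siBRM arrays. Each siBRM array was above each control array. The same medians over all probes were 0.019, -0.017 and -0.00023 in control arrays and 0.039, 0.0047 and -0.06 in siBRM arrays. Over all probes the siBRM arrays thus lay on both sides of the control arrays. Without IFNγ the list stood at -0.00138, 0.0424 and -0.0353 in control arrays and at 0.0051, 0.0397 and -0.00662 in siBRM arrays, which overlapped.

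In cells without IFNγ, siBRM gave the 130 probes a median log2 change of 0.00666, with 70 above and 60 below 0. At an FDR below 0.05, 12 rose (9.23%, where 1.51% of all probes did) and 10 fell (7.69%, where 1.87% of all did) by limma. Of the 43 probes that rose with IFNγ, 10 also rose without it, and of the 4 that fell, 3 also fell. The difference of the siBRM effect with and without IFNγ had a median of 0.199 over the list and 0.01 over all probes, and it was above 0 at 113 of the 130. No probe of the list passed an FDR of 0.05 for this difference by limma. An unadjusted p-value below 0.05 (limma) came with a difference above 0 at 52 and below 0 at 2. A difference above 0 can be a larger rise or a smaller fall with IFNγ. Over all probes, 4.01% had such a p-value in either direction. With trend and robust settings of eBayes 9 of the list passed.

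**Figure D5:**
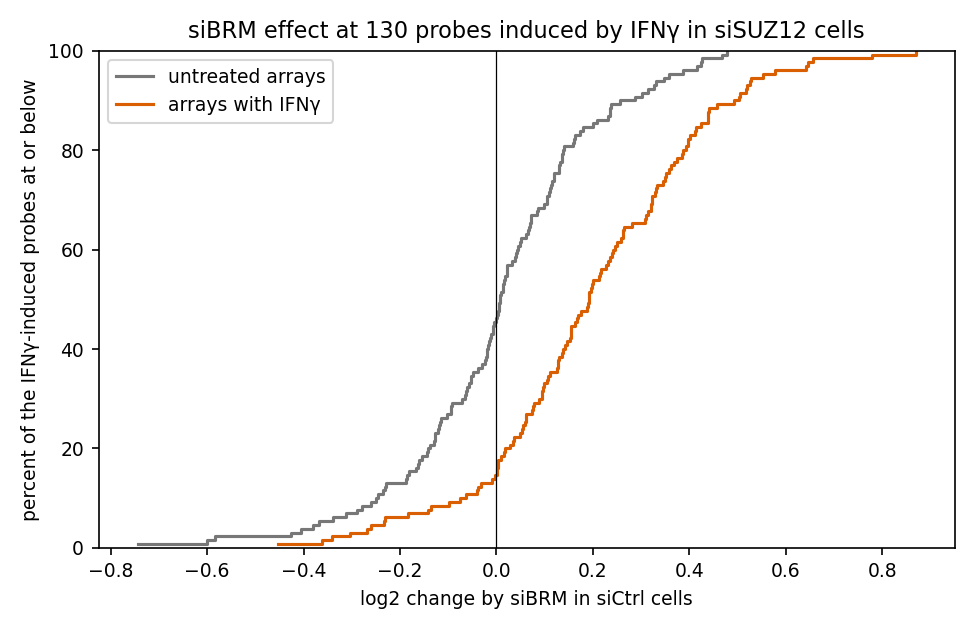
Cumulative share in percent of the 130 probes induced ≥ 2-fold by IFNγ in siSUZ12 cells (vertical axis) by their log2 change after siBRM in siCtrl cells (horizontal axis), untreated (grey) and with IFNγ (orange). The curve with IFNγ lies to the right, with a median of 0.191 against 0.00666.

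The list was also split by the strength of induction in siSUZ12 cells. The 36 probes that IFNγ induced ≥ 4-fold there had a median log2 change by siBRM of 0.289 with IFNγ and -0.0144 without it, and 18 of them rose (50%) and 0 fell with IFNγ at an FDR below 0.05, where 1.41% of all probes rose and 1.72% fell. For the 94 probes induced 2- to 4-fold the medians were 0.168 and 0.0133, and 25 rose (26.6%) and 4 fell. The difference between these 2 groups of probes was not tested. Fold induction by IFNγ in siCtrl cells is set beside that in siCtrl + siBRM cells, since both rest on arrays of the siBRM comparison. The median log2 induction of the 130 probes was 0.901 without and 1.12 with siBRM.

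Bright probes were more frequent in the list than over the array, so the counts were repeated among detected probes. All 6 arrays detected 105 of the 130 probes (80.8%), against 13954 of all probes (29.5%). Of the 105, 42 rose (40%) and 4 fell (3.81%) with IFNγ, where 4.4% of all probes detected in the 6 arrays rose and 5.27% fell. No control array with IFNγ detected 17 of the 130 (13.1%). A second list, of 140 probes that IFNγ raised ≥ 2-fold in siSUZ12 + siBRM cells, gave a median of 0.197 with 46 rises and 6 falls, and 0.0011 without IFNγ.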

How the data were processed

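RNA of SW-13 cells was hybridized to Illumina Human-HT-12 BeadChips. The authors deposited 1 table with the signal intensity of each probe in each array before normalization, and the deposited detection p-value of each intensity. The authors name BeadStudio with average normalization; its formula and any background subtraction are not given in the sources used here. Groups and replicate numbers came from the sample titles and siRNA doses from the Methods.

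The 24 arrays were brought to 1 common mean, that of their own means, floored at 16 (which acted on 0 values) and taken to log2. limma 3.58.1 in R 4.3.3 (lmFit, eBayes) was fitted once with a mean for each of 8 groups and no other term, leaving 16 residual degrees of freedom. Adjusted p-values are Benjamini-Hochberg over 47231 probes. Log2 signals had a residual SD of 0.114 at the median probe. With 3 arrays a group, precision is limited, and a permutation test could not go below p = 0.1. The study describes the 3 as biological replicates. Plots used matplotlib 3.10.9 (Python 3.11.15).

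The comparison, lists and tests were chosen with earlier results of these data known. The 2 largest rises and 2 largest falls among called probes with arrays that did not overlap were named. Gene lists and cell markers need gene names, which matched 0 of the probe IDs, and were not used here.

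Deviations from group means were correlated between siCtrl and siBRM arrays with IFNγ, over 13162 probes detected in every array. Same-numbered arrays gave 0.295, 0.029 and 0.118, and differently numbered ones gave -0.233 to 0.15. These values overlapped, so the numbers were not taken to pair the samples. Alternatives were quantile normalization, median scaling, neqc (which subtracts background estimated from detection p-values, offset of 16), a floor of 64, probes detected in at least 3 arrays, fits of the 12 siCtrl arrays or the 6 compared arrays, trend and robust settings of eBayes, a replicate block, other thresholds, and leaving out replicates or arrays.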

Additional observations from a re-analysis of the deposited data

Results flagged for a closer look

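The effect of siBRM differed between cells with and without siSUZ12 by a direct test on untreated arrays (limma with Benjamini-Hochberg adjustment). Of the 35 probes called with IFNγ, 30 differed, against 1.25% of all probes. The 35 were called for their effect in siCtrl cells, which favours a smaller effect in siSUZ12 cells. The log2 effect in siCtrl cells minus that in siSUZ12 cells was 1.1 for ILMN_1773650 (adjusted p = 9.64e-08), 1.08 for ILMN_1651496 (adjusted p = 1.26e-06), -1.62 for ILMN_1787815 (adjusted p = 2.67e-10) and -1.29 for ILMN_1676984 (adjusted p = 6.01e-09). In siSUZ12 cells the siBRM effects themselves were 0.000453, 0.0135, -0.917 and -0.494.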

How the results depend on the processing

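The counts of raised and lowered probes were within 1.5 times of 9 and 26 under 18 of 21 alternatives each. With neqc they were 22 and 54, which held all 9 and all 26, on the adjusted p-value alone 668 and 811, and at 1.5-fold 60 and 121. Leaving out a replicate number gave 7 to 10 raised and 24 to 27 lowered probes, and leaving out any single array or number 6 to 11 and 24 to 28. The 4 named probes kept their direction and call in 8 alternatives each, with log2 values of 1.14 to 1.22, 1.09 to 1.25, -2.77 to -2.47 and -1.96 to -1.81. The 0 probes with a different siBRM effect under IFNγ became 1 with quantile normalization, median scaling and the replicate block, 4 with the detection filter and 10 with trend and robust settings of eBayes. Without single arrays or replicate numbers that count was 0 to 1, the 1 arising without replicate 3 of the siBRM arrays with IFNγ.

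All 35 called probes kept an adjusted p-value below 0.05 on untreated arrays in 9 alternatives, and 31 did after siSUZ12 in 8. From 13 to 21 did with siBRM in siSUZ12 cells, and the test between siCtrl and siSUZ12 cells gave 22 to 30. Of IFNγ-induced probes, 21 to 29 rose without a replicate number, and up to 56 under the other alternatives. The 56 came with neqc, where the list was taken again and held 214 probes, beside 43 of 130 in the main fit. The median siBRM change of IFNγ-induced probes was 0.203 with quantile normalization, 0.219 with neqc and 0.2 to 0.205 without a replicate number. The median difference by IFNγ was 0.177 with median scaling and 0.199 to 0.219 without a replicate number. The 1479 probes on the adjusted p-value alone became 478 to 654 without a replicate number, and 1213 to 1875 under the other alternatives. These 2 medians, the last count and the test between siCtrl and siSUZ12 cells had their alternatives chosen after seeing the data, as had the restriction of the IFNγ-induced list to detected probes.

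The replicate block left the counts at 9 raised and 26 lowered probes, gave 44 IFNγ-induced probes that rose and 1599 on the adjusted p-value alone, and moved no other count past 1.5 times except the 1 probe above. Control replicate 2 correlated best with siBRM replicate 3 (0.15), so not every array was most like its own number. Background limits the folds of dim probes.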
